A study of Homo sapiens with 12 samples.

Results

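The nuclear-encoded subunit genes of the mitochondrial respiratory chain were followed across 12 RNA libraries of a human cell line that differed in its form of the chromatin remodeller subunit ARID1A and in the fusion oncoprotein EWS-FLI1. Members were taken by gene symbol: the NDUFA, NDUFB, NDUFC, NDUFS and NDUFV series (complex I), SDHA to SDHD (complex II), the UQCR series (complex III), COX5 to COX8 (complex IV) and the ATP5F, ATP5M and ATP5P series (complex V). This gave 145 of the 60645 gene names in the count tables. RefSeq describes 82 of them as protein-coding genes, namely 37 of complex I, 4 of complex II, 9 of complex III, 14 of complex IV and 18 of complex V, and 63 as pseudogenes. Enough fragments for a test were present for 81 members: 77 of the protein-coding genes (37, 4, 9, 10 and 17 by complex) and 4 pseudogenes. The 77 are called the subunit genes here.

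All groups were made from one ARID1A-knockout line, named 12KO, derived from human embryonic kidney HEK-293T cells and grown in DMEM with fetal bovine serum. Cells received an empty vector (no ARID1A), ARID1A WT, or ARID1A ΔIDR1b, which lacks one of the protein's intrinsically disordered regions. Each of these 3 ARID1A states was combined with a further empty vector or with EWS-FLI1, introduced as 2 µg of a pcDNA plasmid with harvest after 48 h. The resulting 6 groups held 2 libraries of polyA RNA each, labelled repeats 1 and 2. Whether the line is a single clone, and whether the repeats are separate cultures, is not given in the sources used here, so p-values measure only the spread between these libraries, which may be technical. The stated purpose of the series was to learn what IDR1b contributes to transcription driven by EWS-FLI1.

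The respiratory chain passes electrons from NADH (complex I) and succinate (complex II) through complex III to oxygen at complex IV, and complex V uses the resulting proton gradient to make ATP. Most subunits are encoded in the nucleus and imported, while a small set is encoded by the mitochondrial genome, so that complexes I, III, IV and V need both sources and complex II only the nuclear one. Promoters of the nuclear subunit genes are known for binding sites of NRF1, of the ETS factor GABP and of YY1, and coactivators of the PGC-1 family act on many of them together.

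The stretches upstream of 4 of these genes are shown as examples of promoters that hold such letters. They come from RefSeq windows on GRCh38.p14, run 5′ to 3′ on the gene's own strand, and were trimmed to bases outside any annotated exon. Capitals mark GCGCATGC (NRF1) or CCGGAAG (the ETS core that GABP also reads), searched on both strands. The coordinates are chr3:120596116-120596308 (plus strand) for NDUFB4, chr19:14572067-14572286 (minus strand) for NDUFB7, chr2:97645842-97646039 (plus strand) for COX5B and chr12:120437893-120438089 (plus strand) for COX6A1.
NDUFB4: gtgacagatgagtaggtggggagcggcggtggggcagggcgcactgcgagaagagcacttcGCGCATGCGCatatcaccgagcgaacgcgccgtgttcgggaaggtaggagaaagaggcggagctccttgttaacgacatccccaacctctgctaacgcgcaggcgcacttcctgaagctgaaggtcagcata
NDUFB7: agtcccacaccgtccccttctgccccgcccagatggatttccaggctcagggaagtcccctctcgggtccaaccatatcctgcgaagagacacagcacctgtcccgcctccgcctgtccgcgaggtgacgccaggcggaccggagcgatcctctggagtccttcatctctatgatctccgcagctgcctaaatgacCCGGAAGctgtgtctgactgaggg
COX5B: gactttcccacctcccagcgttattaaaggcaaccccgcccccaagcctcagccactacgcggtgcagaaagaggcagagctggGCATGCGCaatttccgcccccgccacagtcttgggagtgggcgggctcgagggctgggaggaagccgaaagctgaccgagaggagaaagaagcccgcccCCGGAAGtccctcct
COX6A1: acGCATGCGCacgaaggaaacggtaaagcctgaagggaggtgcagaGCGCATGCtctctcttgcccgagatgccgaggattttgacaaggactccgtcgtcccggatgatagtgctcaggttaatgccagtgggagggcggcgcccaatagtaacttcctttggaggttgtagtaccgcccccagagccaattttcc

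NDUFB4 carries a pair of overlapping NRF1 matches, one on each strand, and COX6A1 carries 2 separate ones. COX5B has one NRF1 and one ETS match in the stretch shown, and NDUFB7 has a single ETS match 24 bases before the start. Both NDUFB4 and COX6A1 were lower in ΔIDR1b libraries in each of the 4 comparisons given below, and NDUFB7 and COX5B in 3 of them. These 4 examples were chosen with their values known, and each holds a match, so they do not stand for all members. Of 64 windows of tested genes, 33 (51.6%) held NRF1, ETS or YY1 letters. NDUFB8, NDUFA11, NDUFV2, COX7B and SDHA, also lower in at least 3 of the comparisons, held none.

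Library totals ran from 11702251 to 14445379 fragments. Levels are given as CPM (the usual scaling of counts by library size) after TMM scaling, which sets libraries to a common level over most genes. ARID1A stood at 147 to 165 CPM in libraries without ARID1A, at 1843 to 2291 with WT and at 2608 to 2878 with ΔIDR1b, so the restored forms were not at the same level. FLI1 was at most 0.146 CPM with the empty vector. With EWS-FLI1 it averaged 1759 CPM without ARID1A, 3568 with WT and 1897 with ΔIDR1b, and EWS-FLI1 libraries of the WT state therefore carried more of the fusion transcript than the other 2 states; the part of this in the results was not tested. Neurofilament and embryonic genes that mark HEK-293 cells were present (NEFL, INA, LIN28B and PAX2, but NEFM with 2 counts in all), UMOD of kidney tubule had no count, and PTPRC and CD3E of blood cells had 3 and 2 counts in all libraries together. NEFL was called lower in all 4 ΔIDR1b comparisons (-0.32 and -0.69 against no ARID1A, -0.47 and -0.63 against WT) and LIN28B higher in both against no ARID1A (0.66 and 0.70). Of the 12 markers of other cell types, 6 could be tested. AQP1 was called higher in ΔIDR1b against no ARID1A with the empty vector and LUM in ΔIDR1b against WT with EWS-FLI1, while the fibroblast collagen COL1A1, at 76.5 to 104 CPM in the group means, was called higher in 3 of the 4 ΔIDR1b comparisons; their part in the results was not tested. In RNA from bulk cultures, a lower level in every cell and a normal level in fewer cells cannot be told apart.

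In cells with ΔIDR1b ARID1A, the nuclear-encoded subunit transcripts of the respiratory chain were lower as a group. The summed level of the 77 subunit genes was 5691 and 5318 CPM in the ΔIDR1b libraries with the empty vector, against 7555 and 7048 CPM without ARID1A and 8015 and 7138 CPM with WT. With EWS-FLI1 it was 5484 and 5962 CPM in ΔIDR1b, against 7441 and 7214 CPM without ARID1A and 7312 and 6671 CPM with WT. All 4 ΔIDR1b libraries lay below all 8 others. The mean over ΔIDR1b libraries was 0.754 of that without ARID1A and 0.727 of that with WT on the empty vector; in the EWS-FLI1 background the ratios were 0.781 and 0.819. As CPM of the plain library total, without TMM, the 4 ΔIDR1b libraries ran from 5648 to 6252 and the 8 others from 6455 to 7458, so the order held and the ratios were 0.819, 0.817, 0.839 and 0.903.

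The order was the same within each complex. For complex I, the ΔIDR1b libraries summed to 1683 to 1886 CPM and the others to 2123 to 2511. Complex II, with 4 genes, reached 177.6 to 193.1 CPM in ΔIDR1b and 215.8 to 243.6 elsewhere. Complex III stood at 769.1 to 873.5 against 960.2 to 1172 CPM. No ΔIDR1b library overlapped another state in these 3 complexes. Complex IV stood at 549.4 to 685.0 against 761.1 to 1015 CPM, and complex V at 2127 to 2326 against 2601 to 3074. Complex IV had the lowest ratio to the cells without ARID1A in both vector backgrounds (0.682 and 0.711) and complex II the highest (0.854 and 0.845); these ratios share their libraries, and the difference between complexes was not tested.

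Gene by gene, 50 of the 77 subunit genes were called lower in ΔIDR1b than without ARID1A on the empty vector and 2 higher (edgeR quasi-likelihood test, Benjamini-Hochberg adjusted p below 0.05 over 20377 genes). With the pseudogenes, 52 of 81 members were called lower, where 16.8% of all genes tested were lower and 16.4% higher. The median log2 change of the 77 was -0.44, against 0.004 for all genes. Respiratory chain genes are well expressed, and such genes are called more readily: among genes of at least 10 CPM, 21.3% were lower, against 69.0% of the 71 members of at least 10 CPM. Leaving out 1 library moved the number of members called to 32 without repeat 1 of the cells lacking ARID1A, and to 32 without repeat 2 of ΔIDR1b.

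Against WT on the empty vector, 54 members were called lower in ΔIDR1b and 0 higher, 53 of them subunit genes. Of all genes, 13.4% were lower and 11.1% higher in that comparison. The median log2 change of the subunit genes was -0.49, against 0.01 for all genes. Among genes of at least 10 CPM, 20.4% were lower and 12.9% higher, with a median of -0.06. Of the 71 members of that level, 71.8% were lower, with a median of -0.50. Both comparisons use the same ΔIDR1b libraries and are not independent. The count was 32 without repeat 1 of WT and 34 without repeat 2 of ΔIDR1b.

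The libraries with EWS-FLI1 share none with those above. The labels do not say whether each ARID1A form was introduced separately for each background, so these libraries may not replicate the ARID1A state. With EWS-FLI1, 45 members were called lower and 2 higher in ΔIDR1b than without ARID1A. Of all genes, 17.9% were lower and 18.1% higher there, and the subunit genes had a median log2 change of -0.39. Against WT with EWS-FLI1, 28 members were called lower and 0 higher, 25 of them subunit genes, with 10.1% of all genes lower and 8.48% higher and a median of -0.28. Among genes of at least 10 CPM, 14.4% were lower in the last comparison, against 35.2% of the members of that level. In the comparison with no ARID1A these shares were 21.4% and 57.7%. Of the 52 members lower against no ARID1A on the empty vector, 43 (82.7%) were also lower with EWS-FLI1, and these were 95.6% of the 45 lower there. For ΔIDR1b against WT, 24 members were lower in both backgrounds, which is 44.4% of the 54 and 85.7% of the 28. The same overlap was not computed over all genes, so it is not shown to be particular to the members. The comparison with WT under EWS-FLI1 was the least firm: 12 members were called when libraries were scaled by their totals alone, 7 when only its 4 libraries were fitted, and 5 without repeat 1 of ΔIDR1b. The count against no ARID1A under EWS-FLI1 was 29 without repeat 1 of the cells lacking ARID1A and 30 without repeat 1 of ΔIDR1b.

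**Figure D1:**
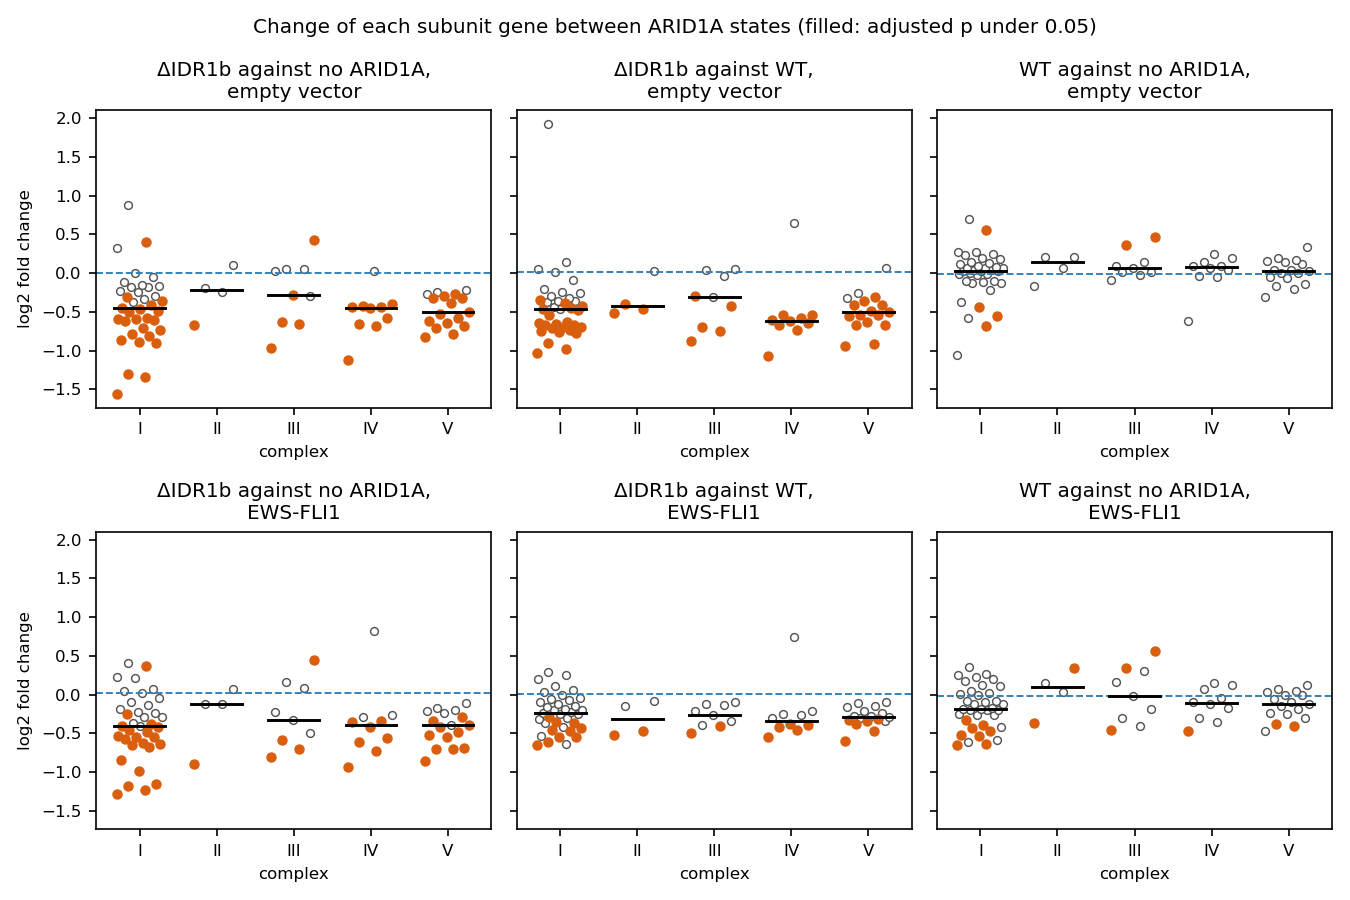
Log2 fold change (y axis) of each tested subunit gene by complex (x axis) in the 6 comparisons of ARID1A states; filled points passed adjusted p below 0.05, black bars are medians and the dashed line is the median of all genes. In the 4 ΔIDR1b panels the medians of all 5 complexes lie below that line.

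Changes were modest for most genes. The lower and upper quartiles of the subunit genes were -0.66 and -0.24 on the log2 scale in ΔIDR1b against no ARID1A on the empty vector. At least 2-fold falls that passed the test were seen for 4 subunit genes on the empty vector (NDUFV2, NDUFA11, NDUFB8 and COX7B) and for 4 with EWS-FLI1 (NDUFB8, NDUFV2, NDUFA13 and NDUFA11). The 4 ΔIDR1b comparisons share libraries in pairs. Over them, 19 members were lower in all 4, 24 in 3, 11 in 2, 9 in 1 and 18 in none. This tally was not made over all genes, so repeated calls are not shown to be particular to the members.

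Complex I, the NADH dehydrogenase, is built from a catalytic core and many accessory subunits. Of its 37 genes, 22 were lower in ΔIDR1b than without ARID1A on the empty vector and 22 were lower than in WT, and with EWS-FLI1 20 and 10 were lower. Against no ARID1A on the empty vector, 4 of 7 core genes and 18 of 30 accessory genes were lower, and against WT with EWS-FLI1 4 of 7 and 6 of 30; the difference between core and accessory genes was not tested. NDUFA4 is counted here by its name, although its protein is now placed in complex IV.

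NDUFB8 (chr10:100523740-100530000, minus strand), an accessory subunit of the membrane arm, had the largest fall of complex I against no ARID1A with EWS-FLI1. Its level with the empty vector was 55.1 and 62.7 CPM without ARID1A, 41.9 and 38.7 with WT, and 24.4 and 23.4 with ΔIDR1b. With EWS-FLI1 the values were 52.7 and 55.0, 33.04 and 36.0, and 18.7 and 25.4 CPM in the same order. Levels thus stepped down from no ARID1A to WT to ΔIDR1b in both backgrounds, with no overlap between states. The log2 change of ΔIDR1b against no ARID1A was -1.30 (SE 0.141, adjusted p 7.96e-09) on the empty vector and -1.29 (SE 0.142, adjusted p 1.07e-08) with EWS-FLI1. Against WT it was -0.75 (adjusted p 0.000181) and -0.65 (adjusted p 0.00167), and the latter was no longer called without repeat 1 of ΔIDR1b (adjusted p 0.0984). NDUFB8 shares 48.5% of its exonic bases with another gene, and the counting used no strand, so reads of the overlapping gene could be lost from or added to it.

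NDUFA11 (chr19:5891276-5904006, minus strand), which holds membrane-arm modules together, showed the same steps. Without ARID1A it was at 53.7 and 62.9 CPM on the empty vector and 55.4 and 48.4 CPM with EWS-FLI1. With WT it was at 45.6 and 40.3, then 35.1 and 36.4 CPM. With ΔIDR1b it was at 22.7 and 23.2, then 25.7 and 20.9 CPM. Every ΔIDR1b library lay below every library of the other states. The log2 change against no ARID1A was -1.34 (SE 0.139, adjusted p 3.04e-09) and -1.16 (adjusted p 5.98e-08).

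NDUFV2 (chr18:9102630-9134345, plus strand) encodes a core iron-sulfur subunit of the NADH-oxidising head and had the largest fall of any subunit gene, from a low level. With the empty vector it stood at 11.0 and 11.6 CPM without ARID1A, 6.92 and 8.14 with WT and 2.49 and 5.15 with ΔIDR1b. With EWS-FLI1 it stood at 8.87 and 11.1, 5.42 and 7.81, and 5.45 and 3.06 CPM, and WT and ΔIDR1b overlapped. The log2 change against no ARID1A was -1.56 (SE 0.289, adjusted p 7.24e-05) and -1.23 (adjusted p 0.00109). Against WT it was -0.98 (adjusted p 0.0145) on the empty vector and -0.64 with EWS-FLI1, which was not called (adjusted p 0.131). NDUFV2 shares 28.4% of its exonic bases with another gene.

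NDUFA13 (chr19:19515736-19529054, plus strand), also known as GRIM-19, is an accessory subunit of the membrane arm. With the empty vector it was at 19.0 and 18.3 CPM without ARID1A, 11.9 and 11.4 with WT and 9.14 and 11.0 with ΔIDR1b. With EWS-FLI1 it was at 18.8 and 17.2, 10.6 and 12.4, and 6.87 and 8.97 CPM. Both restored forms were below the cells without ARID1A, and ΔIDR1b lay below WT without overlap in both backgrounds. The fall in ΔIDR1b against no ARID1A passed the test (-0.89, adjusted p 0.000417, and -1.18, adjusted p 1.25e-05), and the difference between ΔIDR1b and WT did not (-0.21, adjusted p 0.476, and -0.54, adjusted p 0.0559).

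NDUFS3, a core subunit of the peripheral arm, was lower in all 4 ΔIDR1b comparisons, with log2 changes of -0.90 and -0.99 against no ARID1A and -0.69 and -0.55 against WT. NDUFV1, the flavin-binding core subunit that receives electrons from NADH, was also lower in all 4 (-0.47, -0.37, -0.45 and -0.28). NDUFS1, the largest core subunit, went the other way. It stood at 111.2 and 114.1 CPM without ARID1A, 134.2 and 137.1 with WT and 146.1 and 152.6 with ΔIDR1b on the empty vector, and at 107.7 and 107.2, 127.6 and 129.7, and 139.6 and 137.8 CPM with EWS-FLI1. The states did not overlap within a background, and ΔIDR1b was highest. NDUFS1 (chr2:206114817-206159509) rose in ΔIDR1b against no ARID1A by 0.41 (SE 0.0984, adjusted p 0.0016) and 0.37 (SE 0.099, adjusted p 0.00373). The second of these calls was lost when length and GC trends were removed (adjusted p 0.114).

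NDUFS6, NDUFB5 and NDUFB9 of complex I passed the test in only 1 of the 4 ΔIDR1b comparisons, that against WT on the empty vector, and NDUFB9 changed there by -0.39 (adjusted p 0.0129). NDUFS6 encodes a zinc-binding accessory subunit. It was at 57.5 and 52.6 CPM with WT on the empty vector, and all 10 other libraries ran from 28.2 to 46.1 CPM. Its ΔIDR1b libraries were at 41.2 and 28.2 CPM, and the log2 change was -0.67 (adjusted p 0.00136). NDUFB5 was scattered, at 15.2 and 11.3 CPM with WT and 6.65 and 6.29 CPM with ΔIDR1b on the empty vector and between 4.32 and 12.3 CPM elsewhere. Its change of -1.03 (SE 0.29, adjusted p 0.00839) was no longer called without repeat 1 of WT or repeat 2 of ΔIDR1b (adjusted p up to 0.137).

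Complex II, succinate dehydrogenase, also serves the TCA cycle, and its 4 genes did not move as one. SDHA (chr5:218303-257082, plus strand), the flavoprotein, was at 62.2 and 58.6 CPM without ARID1A, 51.2 and 56.7 with WT and 36.5 and 39.2 with ΔIDR1b on the empty vector. With EWS-FLI1 it was at 62.1 and 62.4, 47.1 and 49.1, and 30.0 and 36.8 CPM. The ΔIDR1b libraries were lowest in both backgrounds, without overlap. The log2 change was -0.67 (SE 0.125, adjusted p 7.33e-05) and -0.90 (adjusted p 9.7e-07) against no ARID1A, and -0.51 (adjusted p 0.00279) and -0.53 (adjusted p 0.00351) against WT. The first of the calls against WT was lost without repeat 2 of WT or repeat 1 of ΔIDR1b (adjusted p 0.0534 and 0.0538), and the second without repeat 1 of ΔIDR1b or with only the compared libraries fitted (adjusted p up to 0.12). Near-identical copies of SDHA exist in the genome and fragments that map to several places were not counted, so its level is uncertain.

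SDHB, the iron-sulfur subunit, was highest with WT. On the empty vector it was at 61.0 and 59.1 CPM without ARID1A, 72.2 and 66.7 with WT and 49.6 and 51.5 with ΔIDR1b, and with EWS-FLI1 at 54.0 and 60.9, 77.7 and 68.7, and 50.8 and 55.0 CPM. It was called lower in ΔIDR1b against WT (-0.46, adjusted p 0.00406, and -0.47, adjusted p 0.00474), and the changes against no ARID1A were -0.25 and -0.12 and not called. Of the membrane anchors that bind ubiquinone, SDHC ran from 54.7 to 70.9 CPM over the 12 libraries, the states overlapped, and no ΔIDR1b comparison was called. SDHD was at 52.5 and 45.1 CPM with WT on the empty vector and between 36.2 and 47.0 CPM in the 10 other libraries. It was called only in ΔIDR1b against WT on the empty vector (-0.40, adjusted p 0.0263).

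Complex III, the cytochrome bc1 complex, held the genes with the most unlike patterns. Of 9 genes, 4 were lower and 1 higher in ΔIDR1b against no ARID1A on the empty vector, and 3 were lower and 1 higher with EWS-FLI1. Against WT, 5 were lower on the empty vector and 2 with EWS-FLI1. UQCRB, the ubiquinone-binding protein, was at 135.7 and 120.7 CPM without ARID1A, 124.6 and 115.5 with WT and 71.9 and 59.1 with ΔIDR1b on the empty vector. With EWS-FLI1 it was at 157.2 and 131.1, 124.2 and 86.0, and 80.6 and 84.9 CPM. ΔIDR1b was lowest throughout, though only just below repeat 2 of WT with EWS-FLI1. The log2 change was -0.97 (SE 0.133, adjusted p 6.78e-07) and -0.80 (adjusted p 1.13e-05) against no ARID1A, -0.88 (adjusted p 1.05e-05) against WT on the empty vector, and -0.35 against WT with EWS-FLI1, which missed the threshold (adjusted p 0.0623).

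UQCRH (chr1:46303698-46316776), the acidic hinge protein that helps cytochrome c dock, was lower in all 4 comparisons. It stood at 313.1 and 268.1 CPM without ARID1A, 317.9 and 289.4 with WT and 206.7 and 170.0 with ΔIDR1b on the empty vector, and at 307.8 and 289.7, 279.0 and 246.6, and 181.1 and 215.5 CPM with EWS-FLI1. All ΔIDR1b values lay below all others. The log2 changes were -0.63 and -0.59 against no ARID1A (adjusted p 3.82e-05 and 7.22e-05) and -0.69 and -0.41 against WT (adjusted p 2.24e-05 and 0.00918). Its near-identical copy UQCRHL (chr1:15807169-15809348) had 557 counts in all against 40733 for UQCRH, ran from 2.54 to 5.20 CPM and was not called in any of the 4. Since fragments common to both copies were not counted, the split between them is uncertain.

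UQCRFS1, the Rieske iron-sulfur protein (chr19:29205320-29213151), was lowest in cells without ARID1A. It was at 53.1 and 47.0 CPM without ARID1A, 73.0 and 65.2 with WT and 65.4 and 69.4 with ΔIDR1b on the empty vector, and at 47.1 and 48.5, 80.8 and 60.6, and 64.9 and 65.6 CPM with EWS-FLI1. WT and ΔIDR1b overlapped and both lay above no ARID1A. It rose in ΔIDR1b against no ARID1A by 0.43 (SE 0.127, adjusted p 0.00852) and 0.45 (SE 0.128, adjusted p 0.00591), and in WT by 0.47 (adjusted p 0.0136) and 0.57 (adjusted p 0.00181). Each of these calls was lost on leaving out one or another single library (adjusted p 0.0555 to 0.199).

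UQCRC2, a core protein of complex III (chr16:21953288-21983660), was higher in WT alone. Its values were 188.3 and 195.6 CPM without ARID1A, 243.4 and 248.3 with WT and 189.7 and 209.5 with ΔIDR1b on the empty vector, and 184.3 and 187.9, 232.3 and 241.1, and 190.3 and 203.9 CPM with EWS-FLI1. WT did not overlap the other states. It rose in WT against no ARID1A by 0.36 (adjusted p 0.0125) and 0.35 (adjusted p 0.01), and ΔIDR1b against WT was -0.30 (adjusted p 0.0198) on the empty vector and -0.26 (adjusted p 0.0503) with EWS-FLI1. UQCR10, a small subunit beside cytochrome c1, was called only in ΔIDR1b against WT with EWS-FLI1 (-0.49, adjusted p 0.0157). There it was at 47.4 and 37.5 CPM with WT and 29.9 and 30.5 with ΔIDR1b, and over the other 8 libraries it ran from 28.2 to 42.0 CPM. That call was lost in 6 of the alternative analyses.

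Complex IV, cytochrome c oxidase, has its catalytic subunits in the mitochondrial genome, and the nuclear genes counted here encode the small surrounding subunits. Of 10 tested genes, 9 were lower in ΔIDR1b on the empty vector against either other state. With EWS-FLI1, 7 were lower against no ARID1A and 5 against WT. COX7B (chrX:77899440-77907376) had the largest fall. It was at 42.6 and 44.0 CPM without ARID1A, 48.1 and 35.6 with WT and 20.4 and 19.5 with ΔIDR1b on the empty vector, and at 49.95 and 42.2, 38.8 and 27.7, and 21.9 and 26.4 CPM with EWS-FLI1. The ΔIDR1b libraries were lowest in both backgrounds. Log2 changes were -1.12 (SE 0.162, adjusted p 1.83e-06) and -0.93 (adjusted p 2.19e-05) against no ARID1A, and -1.07 (adjusted p 1.07e-05) and -0.46 (adjusted p 0.0415) against WT.

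COX6A1, the widely expressed form of subunit 6A, was at 59.8 and 67.1 CPM without ARID1A, 77.4 and 57.5 with WT and 45.8 and 47.4 with ΔIDR1b on the empty vector. With EWS-FLI1 it was at 59.7 and 61.0, 67.4 and 64.4, and 43.7 and 46.5 CPM. All 4 ΔIDR1b libraries were below all others, and its 4 changes (-0.45, -0.42, -0.53 and -0.55) were of like size. COX7C and COX6C were lower in all 4 comparisons as well, with log2 changes between -0.37 and -0.73 and between -0.39 and -0.66. The exception was COX6B2, the testis form of subunit 6B, with 277 counts over all libraries and no call. COX6A2, the heart and muscle form, and COX7B2 had 0 counts in 12 libraries, which allows up to 3 counts in all. COX7A1 (muscle) and COX8C (testis) had 29 and 34 counts in all, and were too low to test.

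Complex V, ATP synthase, consists of a catalytic F1 head and a membrane-bound F0 part that holds the rotating ring of c subunits. On the empty vector, 14 of 17 genes were lower in ΔIDR1b against either other state, and with EWS-FLI1 11 against no ARID1A and 6 against WT. All 5 genes of the F1 head (ATP5F1A to ATP5F1E) were lower against no ARID1A on the empty vector, with a median log2 change of -0.32, while 9 of the other 12 genes were lower with a median of -0.57. Against WT with EWS-FLI1 the order was the other way, with 4 of 5 (median -0.33) and 2 of 12 (median -0.28), and the difference was not tested. ATP5F1B, the catalytic beta subunit, had the highest level per length of all members, at 407.6 CPM per kilobase of exon. It was at 938.7 and 937.4 CPM without ARID1A, 1103 and 974.3 with WT and 773.8 and 789.6 with ΔIDR1b on the empty vector, and at 922.8 and 913.0, 1018 and 976.5, and 759.8 and 839.2 CPM with EWS-FLI1. ΔIDR1b was again lowest without overlap. Its log2 change was -0.26 (SE 0.0895, adjusted p 0.022) and -0.20 (adjusted p 0.0808) against no ARID1A, and -0.41 (adjusted p 0.000928) and -0.32 (adjusted p 0.0114) against WT.

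The c subunit of the ring is encoded by 3 genes, ATP5MC1 to ATP5MC3, whose mature proteins are identical. ATP5MC3 (chr2:175176258-175181710) was at 226.4 and 211.5 CPM without ARID1A, 205.5 and 184.3 with WT and 147.6 and 119.8 with ΔIDR1b on the empty vector, and at 225.7 and 211.2, 189.2 and 164.0, and 122.9 and 147.7 CPM with EWS-FLI1. It was lower in all 4 comparisons, with log2 changes of -0.71 and -0.69 against no ARID1A (adjusted p 7.28e-06 and 1.05e-05) and -0.54 and -0.38 against WT. ATP5MC2 was at 151.8 to 191.1 CPM in the 8 libraries without ΔIDR1b and at 112.1 to 131.1 CPM in the 4 with it, and was lower in 3 comparisons (-0.62, -0.40 and -0.56), with -0.28 (adjusted p 0.0675) against WT under EWS-FLI1. ATP5MC1 was at 43.3 to 52.5 CPM and at 36.8 to 40.9 CPM, so its ΔIDR1b libraries were also lowest, but none of its changes (-0.28, -0.24, -0.32 and -0.15) was called. The difference between the 3 genes was not tested.

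ATP5MG, the g subunit of the membrane part, stood at 44.8 and 49.1 CPM without ARID1A, 42.2 and 39.5 with WT and 27.4 and 25.5 with ΔIDR1b on the empty vector. With EWS-FLI1 it stood at 43.6 and 49.3, 38.2 and 31.8, and 30.4 and 27.0 CPM. It was lowest in ΔIDR1b, called in 3 comparisons (-0.83, -0.70 and -0.63) and not against WT under EWS-FLI1 (-0.29, adjusted p 0.146). The pseudogene ATP5PDP4 (chr12:68642519-68642993) was called lower in all 4, from 13 to 25 counts a library in ΔIDR1b against 33 to 70 elsewhere. Its parent ATP5PD encodes the d subunit of the stalk, and fragments cannot be assigned between near-identical copies with certainty. Each of the ATP5PDP4 calls was lost under 2 to 6 of the alternative analyses (adjusted p up to 0.433 against no ARID1A with EWS-FLI1). ATP5PBP1 and ATP5MFP1 had at most 13 and 27 counts in a library and 0 or 1, and 0 to 3, in ΔIDR1b, and UQCRFS1P1 had 3 to 21 counts throughout. Of the pseudogenes not tested, 32 had no count and 27 had at most 77 in all, and the remaining untested protein-coding gene, ATP5MGL, had 21.

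**Figure D2:**
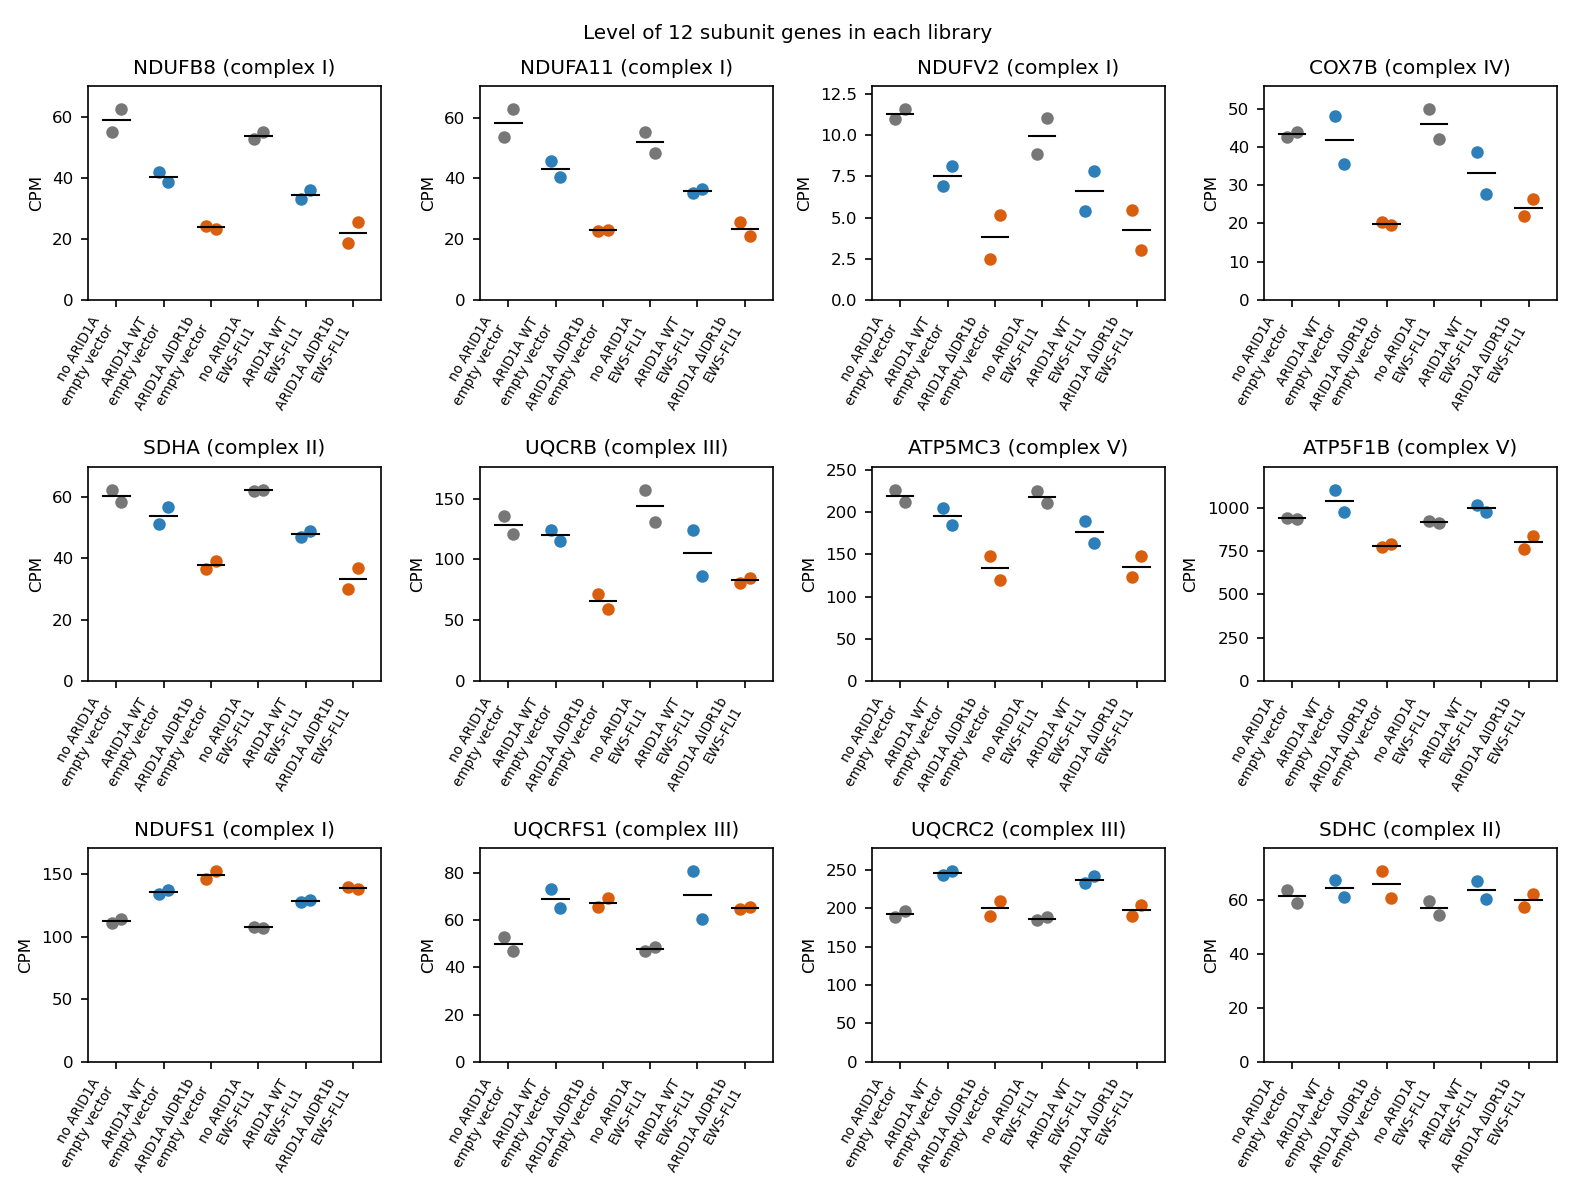
Level in CPM (y axis, from 0) of 12 subunit genes in each library by group (x axis); points are single libraries and bars are group means. The first 8 panels (NDUFB8 to ATP5F1B) have their lowest group means in ΔIDR1b, whereas NDUFS1, UQCRFS1, UQCRC2 and SDHC do not.

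Between WT ARID1A and no ARID1A, the number of genes called depended on the analysis. On the empty vector, 3 members were lower in WT than without ARID1A and 3 higher, where 5.19% of all genes were lower and 6.5% higher, so members were not called more often than genes at large. The median log2 change of the subunit genes was 0.05, against -0.01 for all genes, and its sign changed with other scaling factors. With EWS-FLI1, 13 members were lower and 3 higher, with 8.36% and 9.72% of all genes and a median of -0.12. Lower in both backgrounds were the accessory complex I genes NDUFA11 (-0.44 and -0.54), NDUFB8 (-0.55 and -0.64) and NDUFA13 (-0.68 and -0.65). Higher in both were UQCRFS1 and UQCRC2, with NDUFS6 higher on the empty vector (0.55, adjusted p 0.0142) and SDHB with EWS-FLI1 (0.35, adjusted p 0.0356). These comparisons use the same libraries without ARID1A and with WT as the ΔIDR1b comparisons. On the empty vector the number called ran from 1 to 8 when single libraries were left out, with 1 without repeat 2 of the cells lacking ARID1A or repeat 1 of WT, 2 without repeat 2 of WT, and NDUFA13 lost without any one of the 4 libraries compared (adjusted p 0.082 to 0.106). With EWS-FLI1 it ran from 2 to 23, with 2 without repeat 1 and 6 without repeat 2 of the cells lacking ARID1A and 9 without repeat 2 of WT. Removing length and GC trends gave 20 calls on the empty vector and 32 with EWS-FLI1. The calls of SDHA and SDHB with EWS-FLI1 were lost in 8 and 11 of the alternative analyses.

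**Figure D3:**
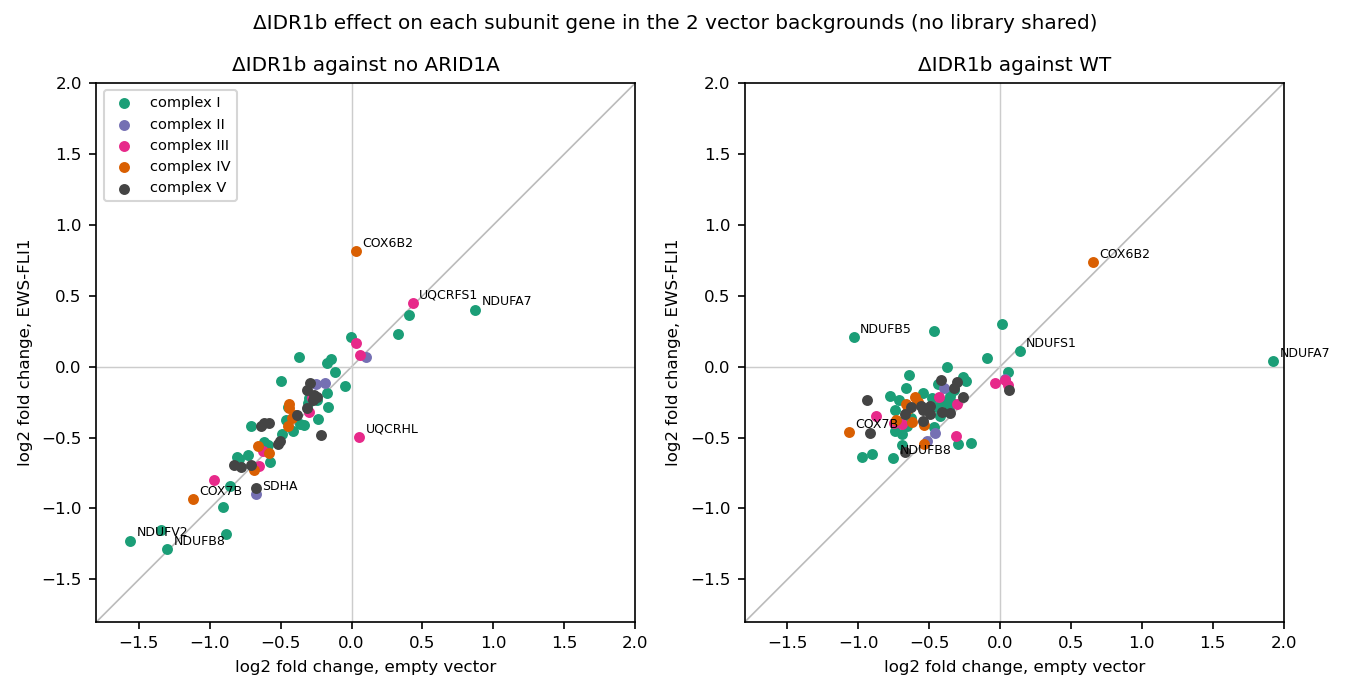
Log2 fold change of each tested subunit gene with the empty vector (x axis) against that with EWS-FLI1 (y axis), for ΔIDR1b against no ARID1A and ΔIDR1b against WT; each point is 1 gene, coloured by complex. Signs were the same for 72 of 77 genes in the first panel and 68 of 77 in the second; the share over all genes was not computed.

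EWS-FLI1 itself changed none of these genes by the test. Against the empty vector, edgeR called 0 members in cells without ARID1A, 0 with WT and 0 with ΔIDR1b, and DESeq2 also called 0 in each. At an unadjusted p below 0.05, 1, 8 and 4 of the 81 members passed, beside 643, 1331 and 1110 of all 20377 genes. Few genes of any kind passed the adjusted threshold for this contrast, at 0.0442%, 0.221% and 0.172% of all genes. The counts of 0 therefore say little about the members in particular. In WT the subunit genes had a median log2 change of -0.14 and 65 of 77 were below 0, while in ΔIDR1b the median was 0.06. The summed level with EWS-FLI1 was 1.0 times, 0.923 times and 1.04 times that with the empty vector in the 3 states, and the libraries of the 2 backgrounds overlapped in each state. Tests of whether the EWS-FLI1 change differed between states called 0 members for WT against no ARID1A (5 at an unadjusted p below 0.05), 0 for ΔIDR1b against no ARID1A (0 unadjusted) and 0 for ΔIDR1b against WT (10 unadjusted), with 0 by DESeq2 in each. Of all genes, 0.0245%, 0.0196% and 0.0% passed at the adjusted threshold, and 884, 702 and 741 of 20377 at the unadjusted one. So the smaller number of members lower in ΔIDR1b against WT under EWS-FLI1 is not shown, gene by gene, to be a difference between backgrounds. In sign, though, 63 of the 77 subunit genes had a positive difference for ΔIDR1b against WT and 14 a negative one. Their median was 0.22, against -0.0001 for all genes. Over the members it was 0.19, and 0.12 to 0.26 when single libraries were left out. These genes share libraries, and the shift of the set was not tested. Without repeat 1 of WT with EWS-FLI1, 7 members were called in the EWS-FLI1 contrast within WT, and up to 2 in the tests of a difference that involve WT.

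Among genes that work with the members, 6 structural subunits or partners outside the naming rule could be tested. COX4I1 of complex IV was lower in 3 of the 4 ΔIDR1b comparisons (-0.44 and -0.37 against no ARID1A, -0.46 against WT on the empty vector) and ATP5IF1, the inhibitor of ATP synthase, in all 4 (-0.83, -0.87, -0.54 and -0.45). Of the 6, 2 were lower against no ARID1A in each background, 6 against WT on the empty vector and 1 with EWS-FLI1, and 0 were higher. Against no ARID1A, assembly factors were called about as often as genes at large. Of 47, 7 were higher and 9 lower (14.9% and 19.1%) against no ARID1A on the empty vector, beside 16.4% and 16.8% of all genes. With EWS-FLI1 10 and 11 (21.3% and 23.4%) were, beside 18.1% and 17.9%. Against WT on the empty vector, 3 were higher and 12 lower (6.38% and 25.5%), beside 11.1% and 13.4% of all genes. With EWS-FLI1 5 and 7 were (10.6% and 14.9%), beside 8.48% and 10.1%. COA7, a factor for complex IV, rose in ΔIDR1b against no ARID1A (1.64 and 1.68), as did NDUFAF1 (0.79 and 0.91). COX20, a chaperone of the catalytic subunit COX2, fell there (-1.64 and -1.59). So did TMEM126B (-0.63 and -0.51) and NDUFAF2 (-0.62 and -0.64), which build complex I. The COX20 fall was shared with WT: means were 9.73 CPM without ARID1A, 3.057 with WT and 3.11 with ΔIDR1b on the empty vector. With EWS-FLI1 they were 9.825, 2.795 and 3.257 CPM. COA7 was also higher in WT, at 18.49 against 9.503 CPM without ARID1A on the empty vector and 20.7 against 11.93 with EWS-FLI1. Mean levels of TMEM126B and NDUFAF2 were not lower in WT than without ARID1A in either background.

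The 13 subunits encoded by the mitochondrial genome gave calls in both directions. Their summed level in ΔIDR1b was 0.896 of that without ARID1A on the empty vector and 1.08 with EWS-FLI1, and it ran from 12490 to 17080 CPM over all 12 libraries. On the empty vector it was 15870 and 15950 CPM without ARID1A, 15330 and 12490 with WT and 13490 and 15010 with ΔIDR1b, so both restored forms lay below the cells without ARID1A there. In the EWS-FLI1 background the values were 15200 and 12890, 17080 and 13660, and 16610 and 13600 CPM, and the 3 states overlapped. Against no ARID1A, 3 (23.1%) were higher and 4 (30.8%) lower on the empty vector, beside 16.4% and 16.8% of all genes. In the EWS-FLI1 background 7 (53.8%) and 1 (7.69%) were, beside 18.1% and 17.9%. Against WT, 1 (7.69%) and 2 (15.4%) were higher, beside 11.1% and 8.48% of all genes, and 0 were lower by edgeR. MT-ND1 rose (0.83 and 1.13) and MT-CYB fell (-0.55 and -0.33) against no ARID1A. Both moved the same way in WT, and further by group mean. MT-ND1 averaged 362 CPM without ARID1A, 767 with WT and 644 with ΔIDR1b on the empty vector. With EWS-FLI1 it averaged 342, 956 and 747 CPM. MT-CYB averaged 1065, 577 and 726 CPM on the empty vector and 1018, 661 and 808.5 CPM with EWS-FLI1.

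Of 16 tested regulators of mitochondrial biogenesis, 4 were higher and 3 lower against no ARID1A on the empty vector, and 6 and 3 in the EWS-FLI1 background. The coactivator gene PPARGC1B (1.36 and 1.18), the nuclear receptor gene ESRRA (0.71 and 0.78) and GABPB1, which encodes the partner of the ETS factor GABPA (0.51 and 0.55), were higher in both backgrounds, as was the mitochondrial helicase TWNK (1.66 and 1.85). Their means were also higher in WT than without ARID1A. On the empty vector PPARGC1B was at 18.4 against 9.10 CPM and ESRRA at 53.3 against 34.6. GABPB1 was at 21.2 against 16.2 and TWNK at 16.6 against 12.0 CPM. SSBP1, which binds single-stranded mitochondrial DNA, was lower in ΔIDR1b against no ARID1A (-0.65 and -0.60). TFAM, which packages that DNA, was lower there on the empty vector (-0.39). With WT on the empty vector SSBP1 and TFAM averaged 131.7 and 60.6 CPM, against 119.1 and 56.2 CPM without ARID1A. Means of TFB1M and POLG2, by contrast, were lower in both restored forms. On the empty vector TFB1M averaged 30.1 CPM without ARID1A, 24.5 with WT and 21.9 with ΔIDR1b. POLG2 averaged 51.1, 38.4 and 40.7 CPM in the same order. Of 13 TCA cycle genes, 5 (38.5%) were lower and 1 (7.69%) higher against no ARID1A on the empty vector, and 1 and 1 in the EWS-FLI1 background. Of all genes, 16.8% were lower and 16.4% higher, then 17.9% and 18.1%. Against WT, 7 (53.8%) were lower on the empty vector and 8 (61.5%) with EWS-FLI1, beside 13.4% and 10.1% of all genes. In each background 1 (7.69%) was higher, beside 11.1% and 8.48%. With EWS-FLI1 the share lower against WT was 34.6% among the members. The fall against WT was therefore not particular to the respiratory chain genes. IDH3G was lower (-0.40 and -0.42 against no ARID1A) and OGDH, of the oxoglutarate dehydrogenase complex, was higher (0.71 and 0.91).

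**Figure D4:**
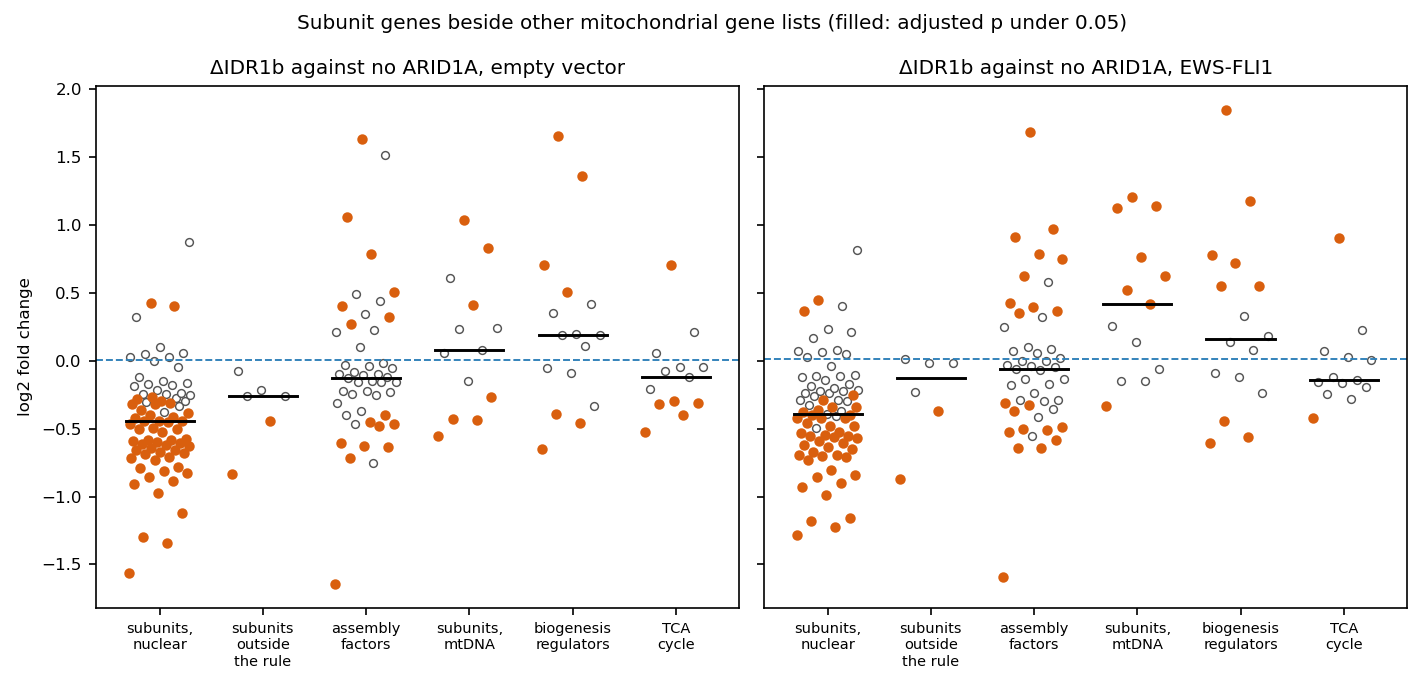
Log2 fold change (y axis) of ΔIDR1b against no ARID1A in each vector background for the subunit genes and 5 other mitochondrial gene lists (x axis); filled points passed adjusted p below 0.05, bars are medians, the dashed line is the median of all genes. The subunit genes have a median of -0.44 on the empty vector and -0.39 with EWS-FLI1, and the subunits of the mitochondrial genome 0.08 and 0.42.

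RefSeq promoter windows, from 250 bases before to 50 after the start, were listed for 67 of the 82 protein-coding members, 64 of them tested. GCGCATGC (NRF1) was found on either strand in 13 of the 64 windows (20.3%), against 3.27% of all 27305 promoters and 5.13% of those of tested genes. CCGGAAG (ETS) was in 19 (29.7%), against 10.7% and 17.3%. AAGATGGC (YY1), which can overlap the ETS motif, was in 11 (17.2%), against 3.03% and 4.79%. At least one of the 3 was in 33 windows (51.6%), against 15.6% of all promoters and 24.6% of those of tested genes. Split by result, 16 of the 35 genes that were lower in at least 3 of the 4 ΔIDR1b comparisons held any of the motifs (45.7%), and 17 of the 29 others did (58.6%). NRF1 matches were in 20.0% and 20.7% of these, and ETS matches in 12 of the 35 (34.3%) and 7 of the 29 (24.1%). YY1 matches were in 2 of the 35 (5.71%) and 9 of the 29 (31.0%). The differences between the 2 sets were not tested. A match describes letters in a window only.

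In exon length the subunit genes were shorter than genes at large, with a median of 2615 bases against 4152, and their GC content was 47.49% against 48.78%. Over all genes the change in ΔIDR1b against no ARID1A on the empty vector ran with exon length (Spearman rho 0.238 over 20377 genes, which share libraries and are not replicates), so shorter genes were lower. Within the 77 subunit genes rho was -0.02. After length and GC trends were removed, 46 members were lower in ΔIDR1b against no ARID1A on the empty vector and 46 with EWS-FLI1, and 58 and 39 were lower against WT. Within the subunit genes, that correction brought in a length trend that was nearly absent before it. Against no ARID1A, rho went from -0.0195 to -0.465 on the empty vector and from 0.0246 to -0.478 with EWS-FLI1. Against WT it went from 0.0988 to -0.248 and from 0.055 to -0.339. The counts of members after the correction carry this trend. Of the tested subunit genes, 31 share over 10% of their exonic bases with another gene, so without strand their counts are uncertain.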

How the data were processed

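PolyA RNA-seq libraries were compared as 6 groups of 2. Values are raw counts of fragments per gene name, which the authors deposited without normalization; per the file headers they were made with featureCounts 2.0.1 on exons of GENCODE release 41 (GRCh38, patch 13), with both ends aligned, no strand option and no fragments that map to several places. STAR, SAMtools and edgeR are named in the submitters' processing notes, without versions. Aligner settings are not given in the sources used here.

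Counts were tested with edgeR 4.0.16 (limma 3.58.1, R 4.3.3): TMM scaling, filterByExpr (minimum count 10, total 15), 1 quasi-likelihood fit of all 12 libraries with 6 group means and no block, and Benjamini-Hochberg adjustment over 20377 genes. A call is an adjusted p below 0.05. The common biological coefficient of variation was 10.11%. The fit was checked on simulated data. DESeq2 1.42.0, other scalings, no filter, fewer libraries, replicate blocks and removal of length and GC trends were tried as alternatives; scaling by library totals alone was chosen after seeing the data. A count of 0 allows up to 3 counts, for counting error only. Named genes were the largest called rise and fall per complex and comparison, the SDH and ATP5MC families, UQCRH with UQCRHL, and tissue forms of complex IV; other members appear as counts, ranges or examples. NDUFS3, NDUFV1, NDUFB9, NDUFB8, NDUFA11, UQCRC2, ATP5F1B, COX6C, COX7C and the promoter examples were added after their values were seen where the rule did not name them. Members and lists were chosen with earlier results of these data known. GC content came from GENCODE release 29 transcripts and promoters from RefSeq on GRCh38, patch 14.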

Additional observations from a re-analysis of the deposited data

How the results depend on the processing

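No called gene among those the naming rule chose changed sign under the alternatives tried. Medians near 0 did: over the members, WT against no ARID1A on the empty vector (0.05) gave -0.02 with upper-quartile factors and -0.05 without repeat 1 of WT, and EWS-FLI1 without ARID1A (0.0025) gave -0.04 without repeat 2 of the empty-vector libraries. The difference in the EWS-FLI1 change between ΔIDR1b and no ARID1A (0.04) gave -0.02 without repeat 2 of ΔIDR1b with EWS-FLI1. Scaling by library totals alone, chosen after seeing the data, raised the median of all genes by 0.12 and 0.18 on the log2 scale in ΔIDR1b against no ARID1A and against WT on the empty vector and by 0.12 and 0.15 with EWS-FLI1, and left 40, 41, 40 and 12 members called, of which the last is a move of over 1.5 times. The members' medians under it were -0.32, -0.33, -0.29 and -0.14. Without a filter on low counts, EWS-FLI1 within WT gave 1 call. Fitting only the libraries compared gave, in the EWS-FLI1 background, 5 calls for WT against no ARID1A and 7 for ΔIDR1b against WT. Removing length and GC trends gave 20 and 32 calls for WT against no ARID1A on the empty vector and with EWS-FLI1.

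The repeat numbers are not stated to mark a shared batch. Differences between repeats correlated over 0.1 in 5 of 6 pairs of groups with the same vector and in 0 of 9 pairs with different vectors. A replicate block over all libraries gave 6, 55 and 54 calls on the empty vector (WT and ΔIDR1b against no ARID1A, ΔIDR1b against WT) and 18, 48 and 30 with EWS-FLI1. A block within each vector gave 10 and 26 calls for WT against no ARID1A and 1 for EWS-FLI1 within WT. With the block and the trends removed together, WT against no ARID1A gave 25 and 35 calls, ΔIDR1b against WT with EWS-FLI1 44, EWS-FLI1 within WT 2 and within ΔIDR1b 1, and the tests of a difference 2 (WT against no ARID1A) and 1 (ΔIDR1b against WT).

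Leaving out 1 library at a time gave 1 to 8 calls for WT against no ARID1A, 32 to 56 for ΔIDR1b against no ARID1A and 32 to 61 for ΔIDR1b against WT on the empty vector. With EWS-FLI1 these ranges were 2 to 23, 29 to 54 and 5 to 36. EWS-FLI1 within WT gave 0 to 7, and the tests of a difference that involve WT 0 to 2 each. A group left with 1 library was assumed to vary like the others.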
